A study of Mus musculus with 36 samples.

Results

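The 31 genes described here make, sense, store and release cholesterol. They were taken by gene symbol from a fixed list, and all 31 were found among the 24421 genes of the count files. The list holds 2 thiolases, 7 genes of the mevalonate and isoprenoid steps, 3 that lead through squalene to lanosterol, 9 that turn lanosterol into cholesterol, 4 of the SREBP2 control system, 3 of sterol transfer and ester storage, and 3 of lysosomal release. No lipoprotein receptor is among them, so uptake is represented by the lysosomal genes that handle cholesterol after it has entered the cell.

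Cells build cholesterol from acetyl-CoA through mevalonate, farnesyl pyrophosphate, squalene and lanosterol. When sterols in the endoplasmic reticulum are low, SCAP escorts SREBP2 to the Golgi, where it is cleaved and released to switch on nearly the whole pathway, and INSIG proteins hold the complex back when sterols are plentiful. Macrophages of the arterial wall also take up modified lipoproteins, free their cholesterol in lysosomes and store the surplus as esters in lipid droplets, which is how foam cells arise.

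All mice were Apoe ko and so lacked apolipoprotein E, which clears remnant lipoproteins, and no group with intact Apoe was analysed here. RNA was sequenced from 3 sorted populations: macrophages of the digested aorta, monocytes taken from blood and spleen together, and macrophages of the peritoneal lavage. Baseline mice ate chow, early mice had eaten the high cholesterol diet for 1 month, and advanced mice for 6 months. Each of the 9 groups had 4 libraries. The labels do not give the age of the mice, nor say that the 4 libraries stem from different animals, and p-values therefore measure only the spread between these libraries, which may be technical.

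Baseline libraries held 5278901 to 14771799 counted reads and the other libraries 942899 to 2628766, so the chow diet cannot be told apart from deeper sequencing. The macrophage markers Csf1r and Adgre1 had counts in all 36 libraries, and the summed large peritoneal macrophage markers reached 5642 to 22206 CPM in the peritoneum against 12.1 to 78.5 CPM in monocytes. CPM is a gene's count scaled to the total of its library, so that all libraries sum to the same total. In earlier results of these data 6 libraries stood apart: aortic baseline replicates 3 and 4, aortic advanced replicate 1, monocyte advanced replicate 3, and peritoneal early replicates 1 and 2. The biological coefficient of variation, the typical spread of a gene between libraries of a group, reached 110% for aortic libraries, 19.1% for monocytes and 21.2% for peritoneal ones. All 31 genes had a count in every peritoneal library, whereas monocyte libraries detected 27 to 31 of them and aortic libraries 21 to 31. In bulk samples, fewer cells of a type and less RNA per cell cannot be told apart.

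**Figure D1:**
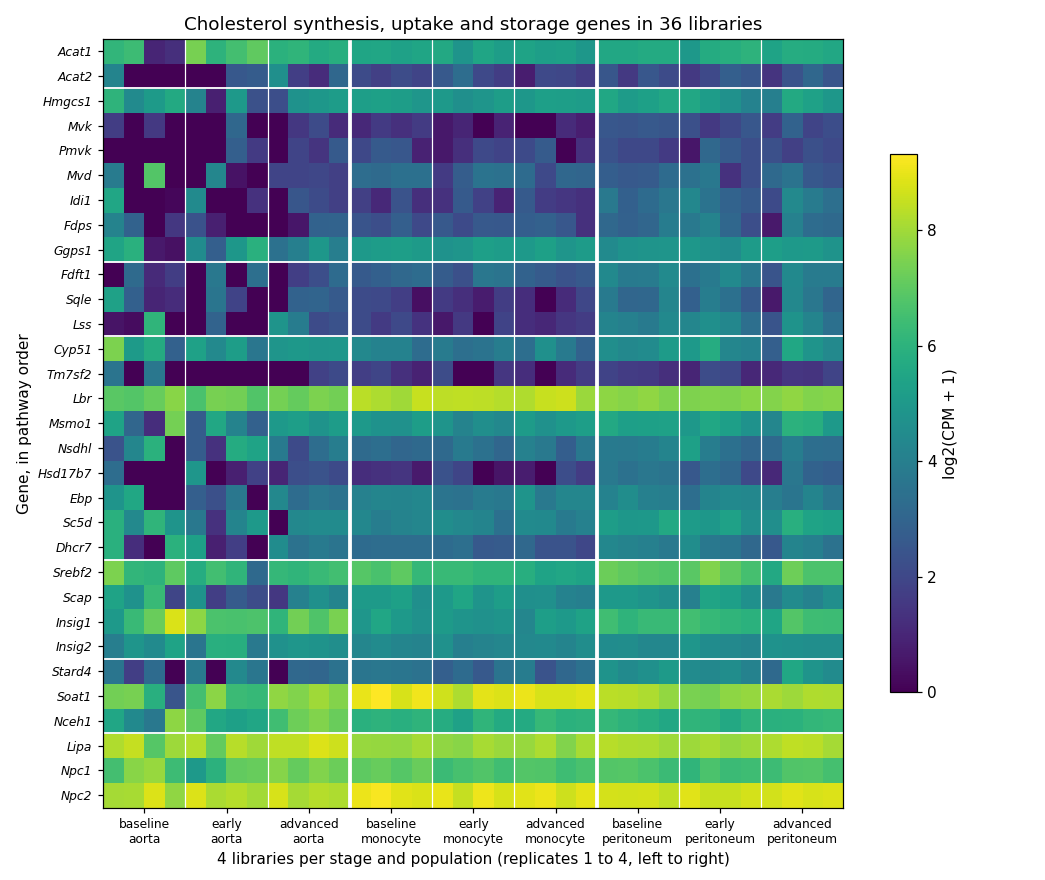
Level of each of the 31 genes (down the side, in pathway order) in each of the 36 libraries (across, 4 per stage and population), as log2(CPM + 1) on the colour scale. Lbr, Lipa and Npc2 are high throughout, and Soat1 is high in monocytes and the peritoneum. Lss and Sqle are low in monocytes and in many aortic libraries, and aortic libraries of the same group differ widely.

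Per length, the storage and lysosomal genes were more abundant than most synthesis enzymes. In monocytes the median level of Npc2, the lysosomal carrier that hands cholesterol to NPC1, was 89.4 CPM per kb of exon. Soat1, which esterifies cholesterol for storage in droplets, had a median of 46.9 CPM per kb in the same cells. Lss, the lanosterol synthase, stood at 0.17 CPM per kb there. Acat1, at 10.7, and Lbr, at 68.9 CPM per kb, were the enzymes above 8 CPM per kb in monocytes. The protein of Lbr is both a sterol reductase and a receptor for lamin in the nuclear envelope. In the peritoneum Npc2 had a median of 76.3, Lbr of 40.6, Soat1 of 26.8 and Lss of 1.62 CPM per kb, in the same order as in monocytes.

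Peritoneal macrophages carried more transcript of most synthesis enzymes than monocytes, and less of Soat1 and Lbr. Averaged over the 3 stages, with 12 libraries a population, 29 of the 31 genes could be tested, of which 18 were higher and 2 lower in the peritoneum at an adjusted p under 0.05 (edgeR's quasi-likelihood test). Of all 10343 genes tested, 67% passed, 32.5% higher and 34.6% lower, so the share of the 29 that passed was near that of all genes. The median log2 fold change was 0.69 for the 29 genes and -0.02 for all genes tested. Mvk and Tm7sf2 were below the filter on low counts.

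**Figure D2:**
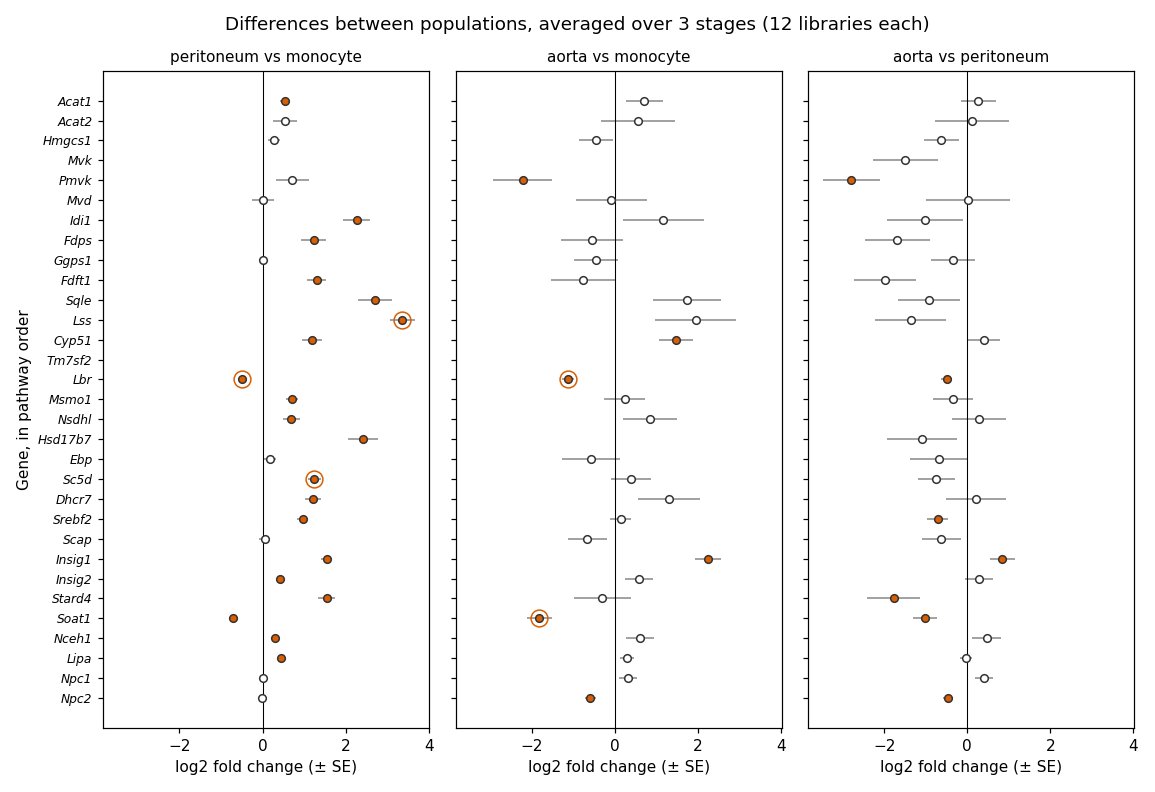
Log2 fold change of each gene between populations, averaged over the 3 stages, with bars of 1 standard error; filled orange points passed the test, ringed points had libraries that did not overlap, and genes not tested are blank. In the peritoneum against monocytes Lss stands farthest out at 3.37, and the bars of both aortic comparisons are longer.

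The squalene and lanosterol steps differed most, and all 3 of their enzymes were higher in the peritoneum. In monocytes the level of Lss ran from 0 to 3.32 CPM with a median of 1.83. In the peritoneum it ran from 4.37 to 26.4 CPM with a median of 17.5. No monocyte library reached the lowest peritoneal one. The log2 fold change was 3.37 ± 0.29 (standard error), a 10.3-fold difference with an adjusted p of 2.51e-10. Sqle, the squalene epoxidase and a controlled step after mevalonate, had a median of 1.72 CPM (0 to 3.40) in monocytes and 8.77 CPM (0.546 to 19.2) in the peritoneum. Its groups overlapped through 1 peritoneal library, advanced replicate 1, and its log2 fold change was 2.71 ± 0.41 (adjusted p 2.98e-06). Fdft1, which joins farnesyl units into squalene, was higher by 1.31 ± 0.23 on the log2 scale. Its exons overlap those of Ctsb on the opposite strand, which had a median of 1940 CPM in the peritoneum and 1303 CPM in monocytes, and reads of the 2 genes cannot be told apart if counting ignored strand.

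In the steps from acetyl-CoA to isoprenoids the difference was uneven, with 2 of 6 tested mevalonate genes and 1 of 2 thiolases higher. Idi1, the isomerase of the isoprene units, had a median of 1.95 CPM in monocytes and 10.02 CPM in the peritoneum, a log2 fold change of 2.27 ± 0.32 (adjusted p 1.16e-06). Fdps, which builds farnesyl pyrophosphate, was higher by 1.24 ± 0.30 on the log2 scale (adjusted p 9.04e-04). Acat1, the mitochondrial thiolase, was higher by 0.54 ± 0.11. Hmgcs1, the synthase that feeds the mevalonate pathway, did not pass, with a log2 fold change of 0.28 ± 0.14 (adjusted p 0.0856), nor did Pmvk, Mvd, Ggps1 and Acat2. Exons of Ggps1 overlap those of Arid4b. Without the filter on low counts Mvk, the mevalonate kinase, also passed, with a log2 fold change of 2.42 ± 0.37 (adjusted p 1.09e-06).

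Of the 8 tested enzymes between lanosterol and cholesterol, 6 were higher and 1 lower in the peritoneum. Hsd17b7, a sterol ketoreductase, had a median of 1.43 CPM in monocytes and 8.50 CPM in the peritoneum (log2 fold change 2.42 ± 0.36, adjusted p 2.59e-06). Sc5d, the desaturase late in the pathway, ran from 9.74 to 22.7 CPM in monocytes and from 23.3 to 57.0 CPM in the peritoneum. Its groups did not overlap, and its log2 fold change was 1.25 ± 0.15 (adjusted p 8.19e-08). Dhcr7, which completes cholesterol, and Cyp51, which removes a methyl group from lanosterol, were higher by 1.21 and 1.19 on the log2 scale. Exons of Cyp51 overlap those of Akap9 on the opposite strand, which had a median of 155 CPM in monocytes, 126 CPM in the peritoneum and 167 CPM in the aorta, so the values of Cyp51 in all 3 populations are uncertain in the same way as those of Fdft1. Msmo1 and Nsdhl, which act together in demethylation, were higher by 0.70 and 0.69. Lbr went the other way: it ran from 240 to 392 CPM in monocytes and from 180 to 218 CPM in the peritoneum. Every peritoneal library was below every monocyte library, with a log2 fold change of -0.51 ± 0.08 (adjusted p 3.58e-06). The summed CPM of the 20 synthesis enzymes (all but the mitochondrial Acat1) overlapped, from 429 to 573 (median 510) in monocytes and from 351 to 648 (median 506) in the peritoneum. Lbr made up much of this sum, with a median of 328 CPM in monocytes and 193 CPM in the peritoneum. The sum therefore does not show that the other enzymes were alike in the 2 populations. Groups that did not overlap were found for 2 higher genes, Lss and Sc5d, and 1 lower gene, Lbr, against 7.2% and 10.8% of all genes tested (18% together).

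Of the 4 genes of the SREBP2 control system, 3 were higher in the peritoneum. Insig1, a target of SREBP2 that retains the complex in the endoplasmic reticulum, ran from 18.5 to 44.9 CPM in monocytes (median 29.6) and from 43.7 to 113 CPM in the peritoneum (median 78.6). Only the lowest peritoneal library fell within the monocyte range, and the log2 fold change was 1.54 ± 0.13 (adjusted p 1.71e-10). Srebf2, which encodes SREBP2, had a median of 70.7 CPM (40.7 to 128) in monocytes and 119 CPM (48.1 to 185) in the peritoneum. These ranges overlapped widely, and the log2 fold change over matched stages was 0.97 ± 0.13 (adjusted p 4.94e-07). Insig2 was higher by 0.42 ± 0.10, and Scap did not pass at 0.05 ± 0.14 (adjusted p 0.772).

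Sterol transfer and storage differed gene by gene. Stard4, a cytosolic carrier of cholesterol, was higher in the peritoneum by 1.54 ± 0.20 on the log2 scale (adjusted p 2.26e-07). Soat1 was lower there, with 163 to 321 CPM (median 262) against 286 to 635 CPM (median 460) in monocytes. Its ranges touched only between 286 and 321 CPM, and the log2 fold change was -0.70 ± 0.10 (adjusted p 1.07e-06). Nceh1, a hydrolase of cholesterol esters, was higher by 0.29 ± 0.09. Of the lysosomal genes Lipa, the acid lipase that frees cholesterol from lipoprotein esters, was higher by 0.43 ± 0.07. Npc1 and Npc2, which carry it out of the lysosome, did not pass, at 0.02 ± 0.08 and -0.01 ± 0.07.

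The windows before the transcription starts are shown for the genes that differed most between these populations. RefSeq promoter windows (GRCm38.p6) were at hand for 25 of the 31 genes. The NF-Y box CCAAT, searched on both strands in the 250 bases upstream, was present for 23 of the 25, against 39.5% of 17491 protein-coding genes. The Sp1 box GGGCGG was present for 20 of 25 (45.8% of protein-coding genes) and the E-box CACGTG for 6 (7.61%). The SRE-1 core TCACNCCAC was present for 1, Hmgcs1 (1.2%). These motifs do not contain one another, a match is a description of the letters, and a gene may have several windows. The last 150 bases before the start follow, in the direction of the gene, for the 5 genes with a window that were higher in the peritoneum by the largest log2 fold changes, for the 2 that were lower, and for Srebf2, with each NF-Y box on either strand in capitals.
Lss (chr10:76531455-76531604, plus strand): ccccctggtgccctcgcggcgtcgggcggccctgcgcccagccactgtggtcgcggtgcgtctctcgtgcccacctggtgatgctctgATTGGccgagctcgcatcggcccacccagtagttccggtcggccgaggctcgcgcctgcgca
Hsd17b7 (chr1:169969206-169969355, minus strand): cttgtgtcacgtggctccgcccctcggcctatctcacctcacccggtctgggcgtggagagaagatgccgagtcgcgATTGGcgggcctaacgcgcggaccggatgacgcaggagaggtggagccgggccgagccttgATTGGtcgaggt
Idi1 (chr13:8885456-8885605, plus strand): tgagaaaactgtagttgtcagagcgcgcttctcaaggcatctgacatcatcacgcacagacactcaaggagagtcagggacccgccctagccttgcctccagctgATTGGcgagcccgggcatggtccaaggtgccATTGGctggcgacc
Insig1 (chr5:28071262-28071411, plus strand): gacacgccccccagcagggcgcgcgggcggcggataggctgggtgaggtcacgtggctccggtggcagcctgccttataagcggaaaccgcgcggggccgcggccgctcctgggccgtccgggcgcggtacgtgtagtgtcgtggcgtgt
Sc5d (chr9:42264301-42264450, minus strand): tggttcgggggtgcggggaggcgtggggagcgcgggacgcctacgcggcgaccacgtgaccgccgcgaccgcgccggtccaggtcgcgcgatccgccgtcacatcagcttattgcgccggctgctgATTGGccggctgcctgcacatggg
Lbr (chr1:181842402-181842551, minus strand): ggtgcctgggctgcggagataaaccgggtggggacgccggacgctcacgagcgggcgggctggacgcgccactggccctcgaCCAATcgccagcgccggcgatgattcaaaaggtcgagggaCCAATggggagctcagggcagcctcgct
Soat1 (chr1:156474329-156474478, minus strand): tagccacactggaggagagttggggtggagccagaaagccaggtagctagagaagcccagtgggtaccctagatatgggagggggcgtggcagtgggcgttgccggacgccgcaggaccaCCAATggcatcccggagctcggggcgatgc
Srebf2 (chr15:82147119-82147268, plus strand): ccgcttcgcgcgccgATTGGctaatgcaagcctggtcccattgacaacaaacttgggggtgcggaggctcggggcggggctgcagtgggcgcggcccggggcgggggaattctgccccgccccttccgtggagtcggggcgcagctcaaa
The box began 62 bases upstream in Lss, 73 and 12 in Hsd17b7, 45 and 14 in Idi1, 24 in Sc5d, 68 and 28 in Lbr, 30 in Soat1 and 135 in Srebf2. It lay on the gene's own strand in Lbr and Soat1 and on the opposite strand in Lss, Hsd17b7, Idi1, Sc5d and Srebf2, while the Insig1 stretch held none. The strand was recorded for these few genes only, and a link between strand and direction of change was not tested. The stretch around the SRE-1 core of Hmgcs1, with that match in capitals, is given for comparison, although the gene itself did not pass between these populations.
Hmgcs1 (chr13:119690154-119690282, plus strand): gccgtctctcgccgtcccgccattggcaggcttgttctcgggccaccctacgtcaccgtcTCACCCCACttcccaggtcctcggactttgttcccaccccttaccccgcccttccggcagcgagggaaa

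Lists of genes around the pathway are set beside the 67% of all genes that passed between peritoneum and monocytes (32.5% higher). Of 10 tested genes of fatty acid synthesis, the branch that SREBP1 governs, 6 were higher and 3 lower (median log2 fold change 0.82). Acaca, which makes malonyl-CoA, was higher by 3.37 ± 0.12, and Acly, which supplies acetyl-CoA to both branches, by 2.51 ± 0.07. Of 9 genes that process SREBP or control it in the endoplasmic reticulum, 4 were higher and 1 lower, with Mbtps1, a protease that cleaves SREBP2, at 0.44 ± 0.07 and Erlin1 at -0.68 ± 0.08. Among 14 genes of lipoprotein uptake and sterol carriage 6 were higher and 4 lower (median -0.06). Among 11 that use isoprenoids 5 were higher and 1 lower (median 0.30), including Nus1 of dolichol synthesis at 0.65 ± 0.08.

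Within monocytes, Srebf2 fell with the diet. At baseline its level was 115, 99.1, 128 and 73.3 CPM in replicates 1 to 4. It was 76.6, 77.0, 67.4 and 68.2 CPM at the early stage. At the advanced stage it was 55.6, 41.4, 45.1 and 40.7 CPM. The means were 104 ± 23.4, 72.3 ± 5.22 and 45.7 ± 6.89 CPM (SD, n = 4). All advanced libraries were below all early and all baseline ones, while baseline replicate 4 lay within the early range.

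For advanced against baseline the log2 fold change of Srebf2 was -1.12 ± 0.15, a 2.17-fold lower level (adjusted p 3.81e-04, edgeR). It passed with each of the 8 libraries left out in turn (-1.24 to -1.02), without the library that stood apart and with counts thinned to the shallowest library. Of 23 genes tested 2 passed, both lower, against 19% of 9465 genes (9.75% lower). The other was Scap, the escort of SREBP2, at 32.3, 32.6, 38.4 and 23.8 CPM at baseline and 23.8, 24.4, 16.6 and 15.3 CPM at the advanced stage. Its groups overlapped, and its log2 fold change was -0.63 ± 0.19 (adjusted p 0.0320). Scap no longer passed in 5 of the 8 fits with a library left out (baseline replicate 1, 2 or 3, or advanced replicate 3 or 4, adjusted p up to 0.0970), nor with thinned counts. Groups did not overlap for Srebf2, Dhcr7 and Npc1, against 22.2% of all genes (13.7% lower). The median over the 23 genes was -0.02, the same as over all genes tested.

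**Figure D3:**
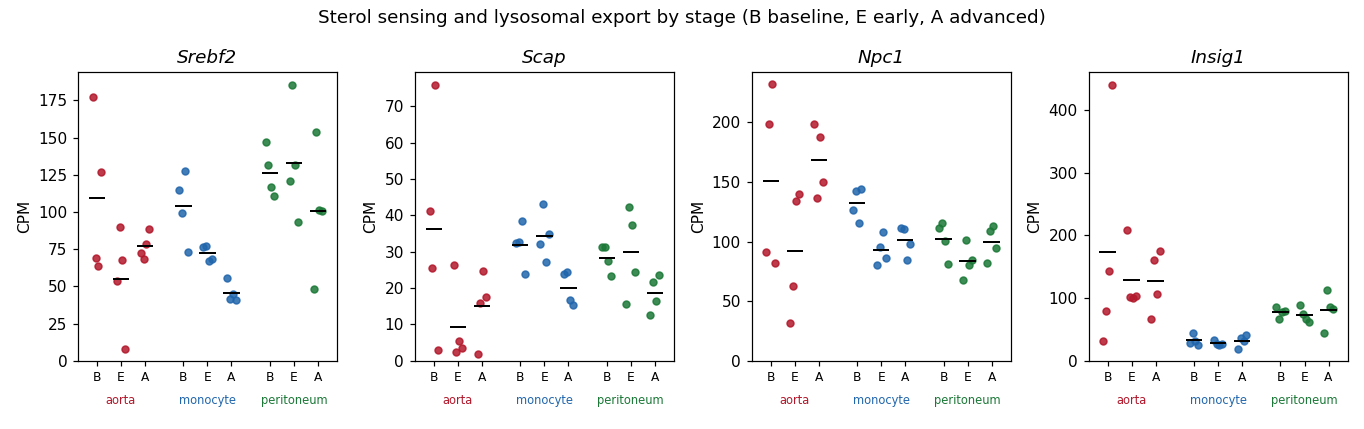
Level in CPM of Srebf2, Scap, Npc1 and Insig1 in each library (points) by stage, one colour per population, with bars at the group means (4 libraries each). Monocyte Srebf2 steps down from a mean of 104 through 72.3 to 45.7 CPM, while the aortic points scatter widely.

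After 1 month of diet, 2 of the 23 genes had fallen in monocytes, against 10.8% of all genes tested (5.08% lower). Srebf2 was lower by a log2 fold change of -0.49 ± 0.14 (adjusted p 0.0402, edgeR). Npc1, the membrane protein that exports cholesterol from lysosomes, was at 126, 142, 115 and 144 CPM at baseline and 80.1, 95.4, 108 and 86.3 CPM at the early stage. Its groups did not overlap, and the log2 fold change was -0.49 ± 0.12 (adjusted p 0.0210). Both calls lay near the threshold and were often lost with a library left out, while both genes stayed lower. Srebf2 passed in 1 of the 8 such fits, the one without baseline replicate 4 (adjusted p up to 0.107 in the others). Its log2 fold change was -0.60 to -0.39 over these fits. Npc1 passed in 4 of 8, at -0.59 to -0.41 (lost without baseline replicate 2 or early replicate 1, 2 or 4, adjusted p up to 0.0722). With thinned counts neither passed. In the same comparison Npc1, Ebp and the untested Mvk had groups that did not overlap, all lower, against 17.4% of all genes (10.2% lower).

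Between the early and the advanced stage no gene passed in monocytes by edgeR (0 of 23, against 2.07% of all genes tested). At an unadjusted p under 0.05 there were 4 (18.5% of all genes), and DESeq2 called 2, Srebf2 and Scap. Srebf2 also passed with the replicate number as a block (adjusted p 0.0485), without the filter (adjusted p 0.0372) and with thinned counts (adjusted p 0.0353). Srebf2 had a log2 fold change of -0.63 ± 0.16 (adjusted p 0.0582) and Scap of -0.78 ± 0.20 (adjusted p 0.0592), both with groups that did not overlap, as for 9.45% of all genes (5.68% lower). Msmo1 and Ebp, the other 2, were at 0.59 ± 0.21 and 0.73 ± 0.24, in the opposite direction.

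The enzymes downstream did not move with Srebf2 as a group. Of the 12 synthesis enzymes tested in monocytes none passed in any stage comparison by edgeR or DESeq2 (2, 2 and 1 at an unadjusted p under 0.05), and their median log2 fold change for advanced against baseline was 0.05. Dhcr7 was at 8.55, 9.12, 9.004 and 9.04 CPM at baseline and 7.94, 4.24, 4.15 and 2.91 CPM at the advanced stage. Its groups did not overlap, but its log2 fold change of -0.82 ± 0.33 did not pass (adjusted p 0.0966). Without advanced replicate 1 it was -1.20 ± 0.36 (adjusted p 0.0349). That library had the highest Dhcr7 of its group, at 7.94 CPM, so leaving it out favours a fall and this p-value adds no support. Lss, Sqle, Idi1 and Hsd17b7 were too low in monocytes to be tested across stages.

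Neighbouring genes changed with the diet in monocytes. Early against baseline, Scd1, the desaturase of fatty acid synthesis, rose by 2.33 ± 0.41 and Acss2, which makes acetyl-CoA from acetate, by 0.87 ± 0.18 on the log2 scale. Acss2 and Fasn, the fatty acid synthase, then had log2 fold changes of -1.14 ± 0.21 and -1.23 ± 0.25 for advanced against early. Lrp1, an endocytic receptor for remnants, was lower than baseline at both stages, at -0.59 ± 0.11 and -0.72 ± 0.11. Of 12 cell cycle genes 3 were higher at the early stage, against 5.74% of all genes, and 7 at the advanced stage, against 9.23%, with Top2a at 1.71 ± 0.51 and 2.63 ± 0.52.

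The make-up of the monocyte libraries moved with stage as well. Summed neutrophil markers were 229 to 646 CPM at baseline, 3376 to 12983 CPM at the early stage and 4665 to 36447 CPM at the advanced stage. At the early stage the mean of 5 of 7 markers was above baseline and that of 2 below it. At the advanced stage 7 of 7 were above baseline. Summed markers of nonclassical monocytes were 4519 to 6098, 3629 to 4098 and 2135 to 3822 CPM, with the mean of 6 of 6 markers below baseline at both diet stages. At the early stage summed T and NK cell markers were 47.9 to 585 CPM (7 of 7 means higher), against 16.7 to 46.9 CPM at baseline and 13.8 to 30.8 CPM at the advanced stage. B cell markers were 35.9 to 145 CPM early (6 of 6 means higher), 14.7 to 46.6 CPM at baseline and 11.3 to 22.5 CPM at the advanced stage. Erythroid markers were 19.9 to 126 CPM at baseline, 1.51 to 7.53 CPM early and 5.81 to 14.8 CPM at the advanced stage. Rn45s, the ribosomal RNA precursor, took between 6.80% and 11.04% of baseline counts, between 12.1% and 13.7% of early counts and between 6.50% and 13.9% of advanced counts. The early libraries were thus above baseline for lymphocyte markers by mean and for Rn45s without overlap. The part of these markers and of Rn45s in the lower Srebf2, Scap and Npc1 was not tested. In the fit without advanced replicate 3, the library with 36447 CPM of neutrophil markers, Srebf2 still passed and Scap did not. The advanced libraries left in that fit still held 4665 to 13505 CPM of these markers, against 229 to 646 CPM at baseline. That fit therefore cannot tell the part of neutrophil transcripts.

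In peritoneal macrophages no gene of the 29 tested passed between any 2 stages by edgeR, against 1.88, 1.32 and 0.898% of 9575 genes for early against baseline, advanced against early and advanced against baseline. At an unadjusted p under 0.05 there were 1, 3 and 1, against 21.1, 19.4 and 15.4% of all genes. DESeq2 called Soat1 in the first and Soat1 and Lipa in the second, and limma-voom called Ggps1 in the third. Soat1 was at 321, 319, 286 and 221 CPM at baseline, 174, 163, 214 and 228 CPM early and 281, 244, 294 and 284 CPM at the advanced stage. Every advanced library was above every early one, as for 3.55% of all genes (7.84% in either direction), and the log2 fold changes were -0.51 ± 0.16 (early against baseline, adjusted p 0.0949) and 0.54 ± 0.16 (advanced against early, adjusted p 0.0966). Early replicates 1 and 2, the lowest for Soat1, also had the fewest large peritoneal macrophage markers, at 10157 and 5642 CPM against 15370 and 16953 CPM in the other 2 early libraries. The part of that in Soat1 was not tested.

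**Figure D4:**
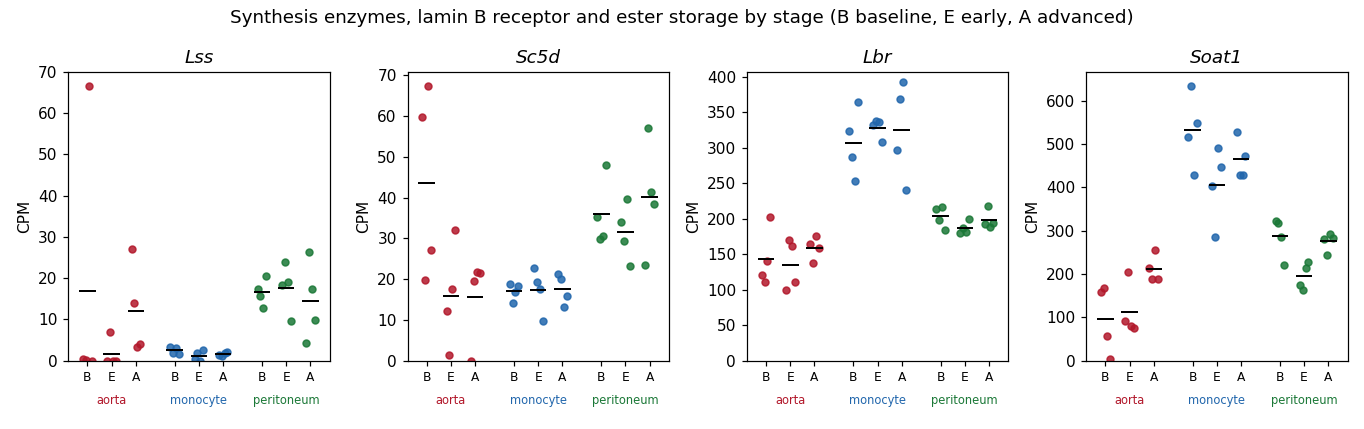
Level in CPM of Lss, Sc5d, Lbr and Soat1 in each library (points) by stage, one colour per population, with bars at the group means (4 libraries each). Peritoneal points lie above monocyte points for Lss and Sc5d and below them for Lbr at all 3 stages, and peritoneal Soat1 dips from a mean of 287 to 195 CPM at the early stage before 275 CPM.

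Srebf2 in the peritoneum was at 147, 132, 117 and 110 CPM at baseline, 121, 185, 132 and 93.2 CPM early and 48.1, 154, 101 and 101 CPM at the advanced stage. These 3 groups overlapped. The difference between the populations in their response was tested itself, and no gene of 29 passed for any pair of stages by edgeR, against 2.78, 1.25 and 2.3% of 10343 genes (0, 1 and 2 at an unadjusted p under 0.05, against 15.9, 16.1 and 13.9%). For advanced against baseline Srebf2 differed in response by 0.88 ± 0.32 on the log2 scale, peritoneum minus monocytes (adjusted p 0.172). Without peritoneal advanced replicate 1 the difference was 1.11 ± 0.25 (adjusted p 0.0346). That library had the lowest Srebf2 of its group, at 48.1 CPM, so leaving it out favours a difference and this p-value adds no support.

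That library stood at the bottom of its group for most of the pathway. Among the 4 advanced peritoneal libraries, replicate 1 was the lowest for 15 of the 20 synthesis enzymes and replicate 2 the highest for 15, whereas over all 9021 genes with a mean of at least 5 CPM they were lowest for 24.8% and highest for 35.5%. Cyp51 was at 6.01 CPM in replicate 1, 46.2 in replicate 2, 27.2 in replicate 3 and 19.9 in replicate 4. Sqle, in the same order, was at 0.546, 19.2, 11.98 and 7.23 CPM. Stard4 and Insig1 followed the same order, at 8.20 and 43.7 CPM in replicate 1 and 46.2 and 113 CPM in replicate 2. Its summed large peritoneal macrophage markers, 15194 CPM, lay within the range of the other 3 libraries. At baseline replicate 2 was lowest for 13 of the 20 (21% of all genes), and at the early stage replicate 4 for 11 (23%). Without advanced replicate 1, 22 genes differed between peritoneum and monocytes.

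**Figure D5:**
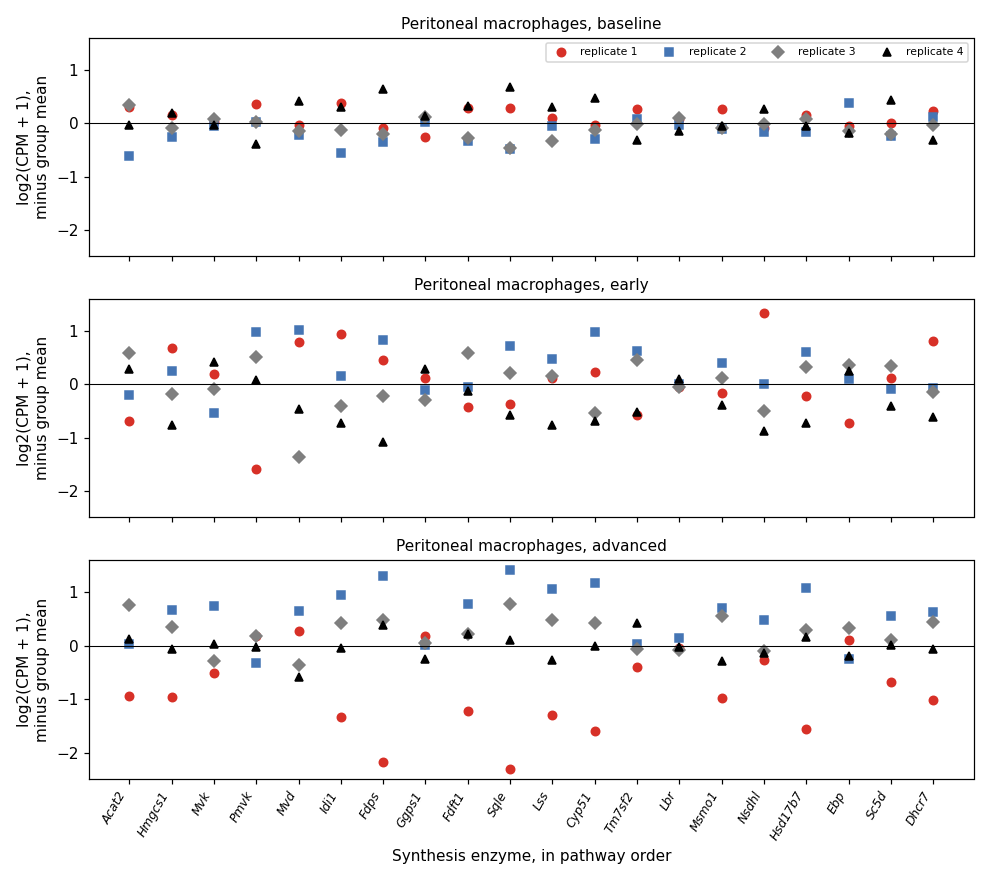
Each of the 20 synthesis enzymes in the 4 peritoneal libraries of each stage, as log2(CPM + 1) minus the mean of its group, with one symbol per replicate. At the advanced stage most enzymes lie lowest in replicate 1 and highest in replicate 2.

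Spearman's rho between pairs of the 20 enzymes, with group means removed, had a median of 0.22 over 190 pairs in the peritoneum, 0.09 in the aorta and -0.06 in monocytes. Over the 12 libraries of the peritoneum the genes most like Lss were Sqle, Fdps and Cyp51 (rho 0.846, 0.846 and 0.818), in monocytes Sqle, Stard4 and Mvk (0.769, 0.608 and 0.556), and in the aorta Mvd, Npc1 and Soat1 (0.781, 0.505 and 0.481). Pairs share their libraries and depth, so these values are a description.

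In aortic macrophages the levels of most of these genes were too scattered between libraries to compare stages. No gene of 25 passed between any 2 stages by edgeR, against 0.373, 0.0403 and 0.585% of 9920 genes, and none had an unadjusted p under 0.05, against 10.2, 3.57 and 8.83%. DESeq2 called none either. Lss shows the scatter: its level was 0.411, 0.240, 66.7 and 0 CPM at baseline, 0, 6.86, 0 and 0 CPM early and 27.0, 14.0, 3.33 and 4.05 CPM at the advanced stage. A single library made up most of the baseline and the early mean.

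Soat1 and Nceh1, genes of ester turnover, were less scattered at the advanced stage than at baseline. This was not particular to them: the SD of the summed synthesis enzymes in the aorta was 169 CPM at baseline and 26.5 CPM at the advanced stage. Soat1 was at 160, 167, 57.8 and 4.501 CPM at baseline and 214, 188, 256 and 190 CPM at the advanced stage. Its groups did not overlap, as for 5.46% of genes tested (9.24% in either direction), and its log2 fold change of 1.298 ± 0.64 did not pass (adjusted p 0.594). Nceh1 was at 44.4, 20.2, 12.1 and 212 CPM at baseline and 87.6, 154, 187 and 145 CPM at the advanced stage. It did not pass (adjusted p 0.875), but without baseline replicate 4, the library at 212 CPM, its log2 fold change was 2.66 ± 0.61 (adjusted p 0.0251). That library was singled out by its own level of Nceh1, so the smaller p-value adds no support for a change. Fibroblast markers summed to 8.89 to 287 CPM at baseline, 510 to 1058 CPM early and 140 to 379 CPM at the advanced stage in these libraries, and their part was not tested.

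Against monocytes, 6 of 28 genes tested differed in the aorta, 2 higher and 4 lower, where 29.7% of 10696 genes passed (14.1% higher, 15.7% lower). Insig1 ran from 31.7 to 440 CPM with a median of 105 in the aorta, and its log2 fold change was 2.25 ± 0.32 (adjusted p 3.02e-06). Only aortic baseline replicate 1 lay within the monocyte range of 18.5 to 44.9 CPM. Soat1 had 4.501 to 256 CPM in the aorta, below all monocyte libraries, with a log2 fold change of -1.82 ± 0.30 (adjusted p 2.51e-05). Lbr, at 99.6 to 202 CPM, was also below all monocyte libraries, with -1.13 ± 0.14 (adjusted p 2.22e-07). Npc2 was lower by -0.59 ± 0.13 and Cyp51 higher by 1.46 ± 0.41, the latter not passing with the replicate number as a block (adjusted p 0.0654). Pmvk also passed as lower, but it was at 0 in 7 of 12 aortic libraries, so no fold is given. Groups of 2 genes, both lower, did not overlap, against 3.49% of all genes (6.21% in either direction). In counts simulated for this comparison 58 of 105 calls were false, so the calls here are tentative.

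Against the peritoneum, 7 of 30 genes tested differed in the aorta, 1 higher and 6 lower, where 26.8% of 10698 genes passed (14.9% higher, 11.9% lower). The median log2 fold change of the 30 was -0.56, and that of all genes 0.01. Soat1 was lower by -1.03 ± 0.29, Lbr by -0.50 ± 0.14 and Npc2 by -0.47 ± 0.13, and these 3 passed under all 32 alternatives. Srebf2 was lower by -0.71 ± 0.26 (adjusted p 0.0391) and Stard4 by -1.77 ± 0.64 (adjusted p 0.0409), passing in 26 and 25 of the 32. Insig1 was the gene that was higher, by 0.84 ± 0.30 (adjusted p 0.0393), and it passed in 10 of the 32, not with RLE size factors. Pmvk was lower with the same zeros as above. Fdft1 did not pass in the main fit (adjusted p 0.0532). It passed as lower with RLE size factors (-2.09 ± 0.76, adjusted p 0.0413), without the filter, by DESeq2 and with thinned counts. The overlap of Fdft1 with Ctsb applies here too. Ctsb had a median of 3209 CPM in the aorta and 1940 CPM in the peritoneum, and its part was not tested. Lss did not pass either (adjusted p 0.287). Without aortic baseline replicate 3, the library at 66.7 CPM, it was lower by -3.42 ± 0.71 (adjusted p 4.89e-04). That library was singled out by its own level of Lss, so this p-value adds no support for a difference. No group of any gene was free of overlap, against 4.36% of all genes. The test gives both populations of a comparison the same spread, which the aortic libraries exceed, so p-values against the aorta are less reliable than those between peritoneum and monocytes. In simulated counts 58 of 105 calls were false for aorta against monocytes, and 6 of 166 for peritoneum against monocytes. Aorta against peritoneum was not simulated, and the share of false calls in the real data is not known.

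Over all comparisons, 22 of the 31 genes passed between populations and 3 between stages, Srebf2, Scap and Npc1, all in monocytes. The 7 that passed in none were Acat2, Ebp, Ggps1, Hmgcs1, Mvd, Mvk and Tm7sf2.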

How the data were processed

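Counts of reads per gene were deposited by the authors, 1 file per library. Per the submitters' processing notes the tools were STAR and featureCounts with the assembly mm10, and versions and strand settings were not given in the sources used here. Per the labels' protocols, cells were sorted into lysis buffer and libraries of polyA RNA were made with the Ovation SoLo kit. The counts carry no molecular identifiers, so their precision covers counting error only. Totals ran from 942899 to 14771799. CPM was computed here from all counts of a library.

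Stages were fitted within each population (12 libraries) and populations in pairs (24 libraries, 6 groups, averaged over stages). The test was edgeR's quasi-likelihood test (4.0.16, R 4.3.3) with TMM, genes kept by filterByExpr and a two-sided Benjamini-Hochberg adjusted p under 0.05 over all genes tested. Alternative fits used DESeq2 (1.42.0), limma-voom with sample weights (limma 3.58.1), size factors by RLE, all genes unfiltered, the replicate number as a block, counts thinned to the shallowest library, all 36 libraries together, and fewer libraries (each in turn, or those that stood apart). The steps were tested on simulated data: with the aortic spread, changes between aortic stages were not recovered and 58 of 105 calls between aorta and monocytes were false. The other comparisons simulated had few false calls but missed many small changes. For early against baseline, 2-fold changes were recovered at 71.6% in monocytes, 68.7% in the peritoneum and 32.8% for the response. For 1.5-fold changes these shares were 29.9%, 18.2% and 7.58%. A gene that did not pass may therefore still have changed. Named genes were all 31 by role, at most 3 passing genes per companion list and comparison, and the 3 most like Lss. The genes and the lists were chosen with earlier results of these data known. Overlapping exons came from the GENCODE annotation and promoter windows from RefSeq.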

Additional observations from a re-analysis of the deposited data

Results flagged for a closer look

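A library far from the other 3 of its group (its gap to the nearest, over the range of the group, above Dixon's 95% critical value) was found for 21 of 279 combinations of gene and group, or 7.53%, where chance gives about 1 in 20. Of these 18 lay in the aorta, 17 of them with a high library, 1 in monocytes and 2 in the peritoneum. All values are in CPM.

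In aortic baseline replicate 1, Acat2 was at 17.3, Idi1 at 44.4, Sqle at 39.7 and Hsd17b7 at 9.03, and the other 3 libraries reached at most 0, 0.107, 6.24 and 0. In aortic baseline replicate 3, Mvd was at 112 (others 0 to 13.5) and Lss at 66.7 (others 0 to 0.411). Nceh1 was at 212 in aortic baseline replicate 4 (others 12.1 to 44.4).

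In aortic early replicate 1, Idi1 was at 20.8, Hsd17b7 at 29.0, Dhcr7 at 38.1, Scap at 26.4, Insig1 at 209 and Nceh1 at 126, and the others reached at most 1.503, 2.504, 2.28, 5.33, 103 and 47.3. In aortic early replicate 2, Mvd was at 18.3, Lss at 6.86 and Soat1 at 205, against at most 0.380, 0 and 92.5. Mvk was at 7.61 in aortic early replicate 3 and at 0 in the others. In aortic advanced replicate 1, Sc5d was at 0 and in the others at 19.6 to 21.6.

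Outside the aorta, Fdps was at 3.31 in monocyte early replicate 2 (others 4.87 to 5.04), Msmo1 at 48.6 in peritoneal baseline replicate 1 (others 37.5 to 38.8) and Nceh1 at 48.0 in peritoneal early replicate 3 (others 63.7 to 66.5).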

How the results depend on the processing

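No comparison reversed a gene's direction among those that passed. With counts thinned, monocyte calls were 0 (early against baseline), 1 (advanced against early) and 1 (advanced against baseline). Without the libraries that stood apart they were 1 for advanced against baseline in monocytes and 1 in the aorta. For advanced against early in monocytes no filter gave 1 and DESeq2 gave 2. DESeq2 gave 1 (early against baseline) and 2 (advanced against early) in the peritoneum, and limma-voom gave 1 for advanced against baseline. One fit of all 36 libraries, which shares the aortic spread, gave 10 for aorta against monocytes and 13 for peritoneum against monocytes. The cause of the other changes was not tested.

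With 1 library left out in turn, calls ranged from 0 to 2, 0 to 1 and 1 to 3 in monocytes for early against baseline, advanced against early and advanced against baseline. They ranged from 0 to 1 for advanced against baseline in the aorta and in response, and in the peritoneum for both comparisons with the early stage. The range was 6 to 9 for aorta against monocytes and 20 to 22 for peritoneum against monocytes. For aorta against peritoneum it was 4 (without peritoneal advanced replicate 2) to 12 (without aortic baseline replicate 1).

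At baseline the correlations of same-numbered monocyte and peritoneal libraries were 0.1, 0.275, 0.196 and 0.236. Libraries with unlike numbers were not correlated, so whether replicate numbers pair libraries is not known. Of all same-numbered pairs of populations 4 of 12 were over 0.1 at baseline (those above), 0 early and 1 at the advanced stage. The correlation of same-numbered libraries was over 0.1 in 0, 1 and 1 of 12 pairs of stages in the aorta, monocytes and peritoneum. With the replicate block the same 20 genes passed between peritoneum and monocytes, Srebf2 passed for advanced against early in monocytes, a count of 1, Cyp51 was lost against monocytes, and the aorta against peritoneum gave 8 calls in place of 7.

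Over all genes, calls were 37, 4 and 58 between aortic stages (0 to 341 under the alternatives), 1024, 196 and 1797 in monocytes (548 to 1423, 34 to 435 and 1100 to 2180), 180, 126 and 86 in the peritoneum (4 to 683, 5 to 542 and 3 to 1526) and 288, 129 and 238 for the responses (32 to 526, 16 to 377 and 69 to 503). For peritoneum against monocytes they were 6934, and 3291 in one fit of all libraries. RLE moved the median log2 fold change of all genes in aorta against peritoneum from 0.01 to -0.09. In monocytes Acat2, Mvk, Pmvk, Idi1, Sqle, Lss, Tm7sf2 and Hsd17b7 were below the filter on low counts and were not tested between stages.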
